A study of Mus musculus with 17 samples.

Results

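This report describes 42 genes of the integrated stress response and the unfolded protein response in mouse macrophages, chosen by name from the 24453 gene models of an RNA-seq table. All 42 symbols were found once each. They were handled as 23 ATF4-type genes and 19 endoplasmic reticulum (ER) genes. The ATF4-type genes comprised 7 stress regulators and other ATF4 targets, 6 enzymes of amino acid and one-carbon synthesis, 3 amino acid transporters or their subunits, and 7 aminoacyl-tRNA synthetases. The ER genes comprised 4 stress sensors or effectors (GCN2, which senses uncharged tRNA outside the ER, was listed with them), 12 chaperones and folding factors, and 3 factors of ER-associated degradation.

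Stress kinases such as PERK (gene Eif2ak3) and GCN2 (Eif2ak4) phosphorylate the translation factor eIF2, which lowers protein synthesis in general and raises translation of the transcription factor ATF4. ATF4 binds DNA as a bZIP dimer and is known to drive genes that make, import and charge amino acids. Misfolded protein in the ER also activates IRE1 (Ern1), which splices Xbp1 mRNA, and ATF6, and these drive genes for chaperones and for degradation of ER proteins. ATF3, Jun and JunD, the factors edited in the cells described here, are bZIP proteins of the AP-1 family, to which ATF4 is related.

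The 13 polyA RNA-seq libraries came from immortalised bone marrow-derived macrophages (iBMDM, 8 libraries) and thioglycollate-elicited peritoneal macrophages (TGEM, 5 libraries). The iBMDM line was made from C57Bl/6EiJ marrow with a retrovirus carrying Myc and BRAF(V600E), was used at passage 3 to 8, carried Cas9, received guide RNAs by lentivirus and was sorted on tagBFP2, and all 8 libraries were vehicle treated. There were 2 libraries each of the Scramble control, Atf3 KO, Jun KO and Jund KO (JunDKO in the figures) genotypes, of which the Scramble libraries are titled zsGreen, and whether a genotype was 1 clone or a pool of edited cells is not given in the sources used here. The TGEM libraries came from C57Bl/6EiJ mice (1 vehicle, 1 KLA) and Balb/cJ mice (1 vehicle, 2 KLA), all labelled male and 8 weeks old. KLA, Kdo2 lipid A, is an agonist of the endotoxin receptor TLR4 and was given for 1 h. A further 4 nascent RNA samples of the series were not analysed here.

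Levels are in RPKM, reads per kilobase of exon scaled to the mapped reads of the library, so they can be compared between genes. Depth ran from 1553296 to 18444439 mapped reads per library, and both extremes were Jund KO libraries. Several values go against or cannot check the labels. All 5 TGEM libraries held Xist at 19.2 to 28.1 RPKM, the Y-linked genes Ddx3y and Kdm5d at 0, Uty at 0.011 RPKM or less and Eif2s3y at 0 in all but the C57Bl/6EiJ vehicle library (0.749 RPKM), although they are labelled male. The iBMDM libraries held Xist at 0.029 RPKM or less and expressed all 4 Y-linked genes. The mRNA of the edited genes was not lower in a way that passed a test. Atf3 stood at 154 and 169 RPKM in the libraries labelled Atf3 KO against 80.8 and 77.4 RPKM in Scramble (higher, limma adjusted p = 0.00237), Jun at 26.2 and 20.5 RPKM in the libraries labelled Jun KO against 17.6 and 18.5 RPKM, and Jund at 6.94 and 6.07 RPKM in the libraries labelled Jund KO against 9.19 and 8.33 RPKM. A frameshift need not lower a gene's mRNA, so these values do not check the labels, and the genotypes below are those of the labels. The study assessed the knockouts by western blotting, which is not analysed here. The libraries labelled Atf3 KO also stood apart, and the second of them has another title date than the other iBMDM libraries. Fold changes against Scramble rose with the GC content of the transcript (Spearman rho 0.50, a description over 10617 genes that share these libraries), and 10425 and 10631 models had reads, against 11884 to 12533 in the other iBMDM libraries.

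The ER chaperones as a class had the highest summed level of these mRNAs in every library. Hspa5, which encodes the ER HSP70 chaperone BiP (chromosome 2, bases 34772090 to 34776529, plus strand, mm10), stood at 1631 and 1933 RPKM in Scramble iBMDM, and Calr, which encodes the calcium-binding chaperone calreticulin, at 1348 and 1521 RPKM. The summed level of the 12 chaperones was 5921 and 6902 RPKM in Scramble, 6923 and 5684 RPKM in Atf3 KO, 7316 and 8833 RPKM in Jun KO, and 2432 and 2846 RPKM in Jund KO. The TGEM libraries held 959.4 to 1724 RPKM, so the groups fell in 3 bands with Jund KO between the other iBMDM genotypes and the TGEM libraries. The 6 synthesis enzymes had another order, with sums of 175.3 and 153.3 RPKM in Scramble, 225.4 and 236.0 RPKM in Atf3 KO, 217.9 and 200.9 RPKM in Jun KO, 394.4 and 359.5 RPKM in Jund KO and 20.4 to 24.1 RPKM in TGEM. Jund KO was the lowest iBMDM genotype for the chaperones and the highest for the synthesis enzymes. Vldlr and Slc7a3 were under 1 RPKM in every library, and Chac1, a glutathione-degrading enzyme, reached at most 1.29 RPKM. These 3 genes were therefore not tested.

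**Figure D1:**
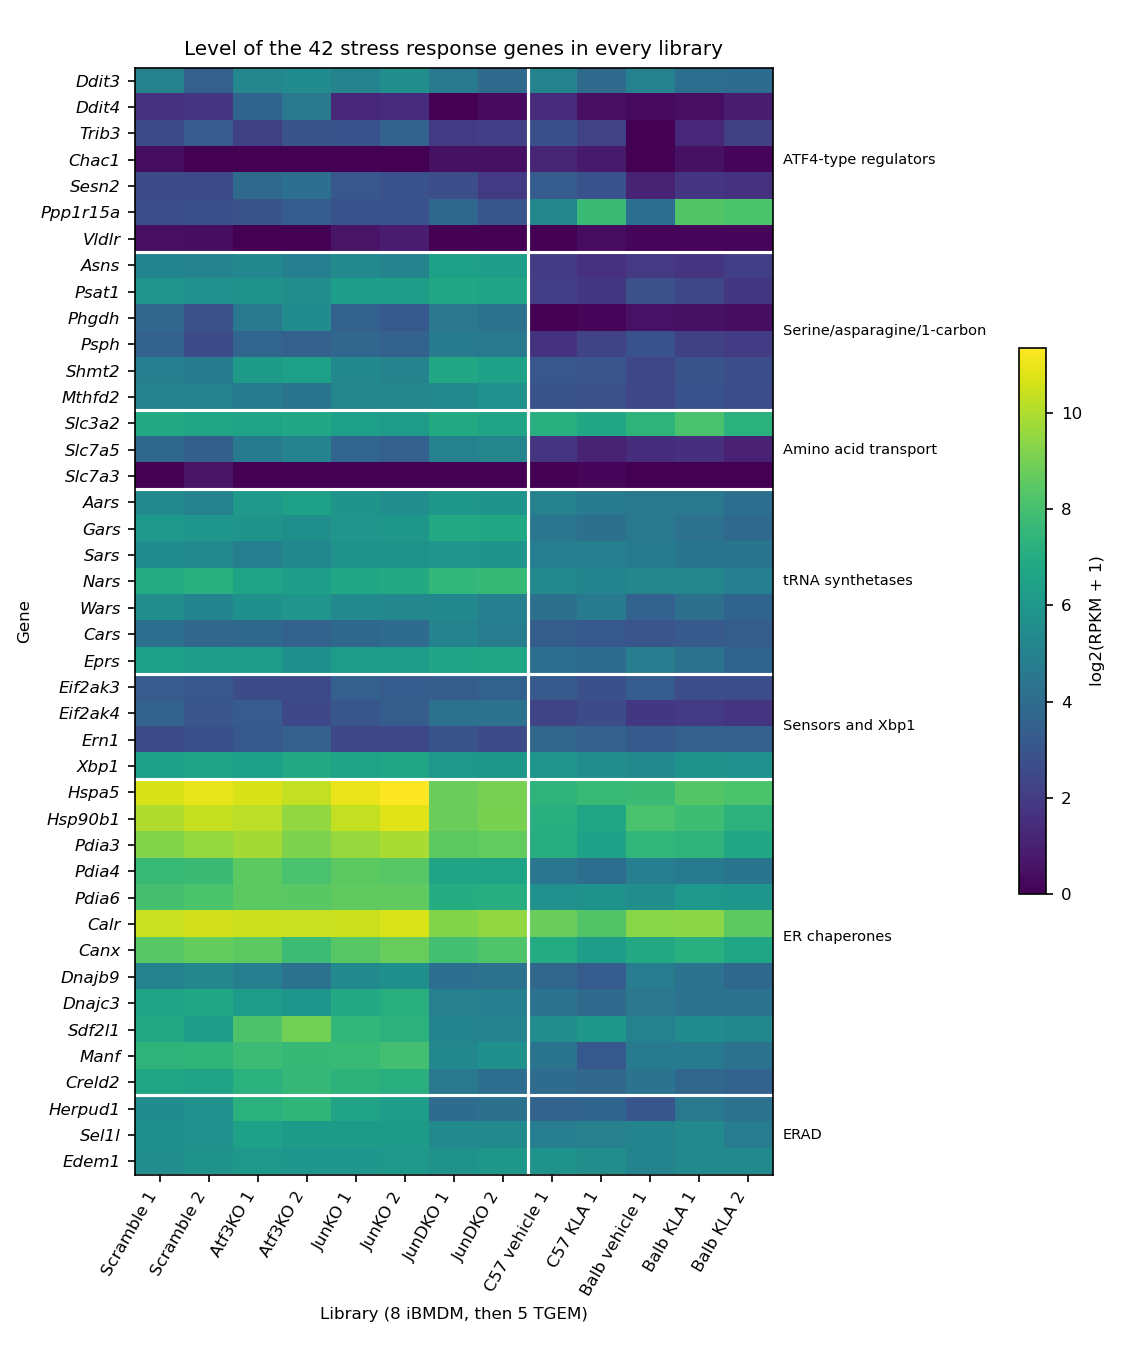
Heat map of the level of each of the 42 genes (rows, grouped by role) in each of the 13 libraries (columns, grouped by cell type and genotype or treatment), as log2(RPKM + 1). Brighter cells are higher levels. The rows of Hspa5, Hsp90b1, Pdia4 and Pdia6 are brightest in the Scramble, Atf3 KO and Jun KO libraries, intermediate in the 2 Jund KO libraries and lowest in the 5 TGEM libraries, and the rows of Asns, Psat1, Phgdh and Slc7a5 lie between 0 and 6.12 RPKM in TGEM.

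The 300 bases around each start site, from 250 before to 50 after, were searched on both strands in RefSeq GRCm38.p6 for the elements known for these pathways. Windows existed for 36 of the 42 genes, 18 of each class (Cars, Manf, Slc7a3, Wars, Slc7a5 and Nars had none), and for 27025 genes in all. The ER stress response element (ERSE, CCAAT and CCACG separated by 9 bases) was in 7 of the 18 ER genes (38.9%), none of the 18 ATF4-type genes and 0.137% of all genes. Its 7 holders were Hspa5, Hsp90b1, Pdia6, Calr, Canx, Dnajc3 and Creld2, which are 7 of the 11 chaperones with a window. The related ERSE-II (ATTGGNCCACG) was in Herpud1 and in 0.0444% of all genes. The core of the ATF4 element (CARE, TGATGNAA) was in 6 of the 18 ATF4-type genes (33.3%), Trib3, Chac1, Vldlr, Asns, Aars and Gars, in Herpud1 among the ER genes and in 4.51% of all genes. The AP-1 element TGACTCA was in Ddit3 and Hspa5, 5.56% of the genes with a window against 5.95% of all genes. The cyclic AMP element TGACGTCA was in Ppp1r15a and 2.03% of all genes, and the XBP1 element TGACGTGG, which shares its first 6 letters with it, was in none of the 36 genes and 0.714% of all genes. These matches describe the letters and do not show binding.

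**Figure D2:**
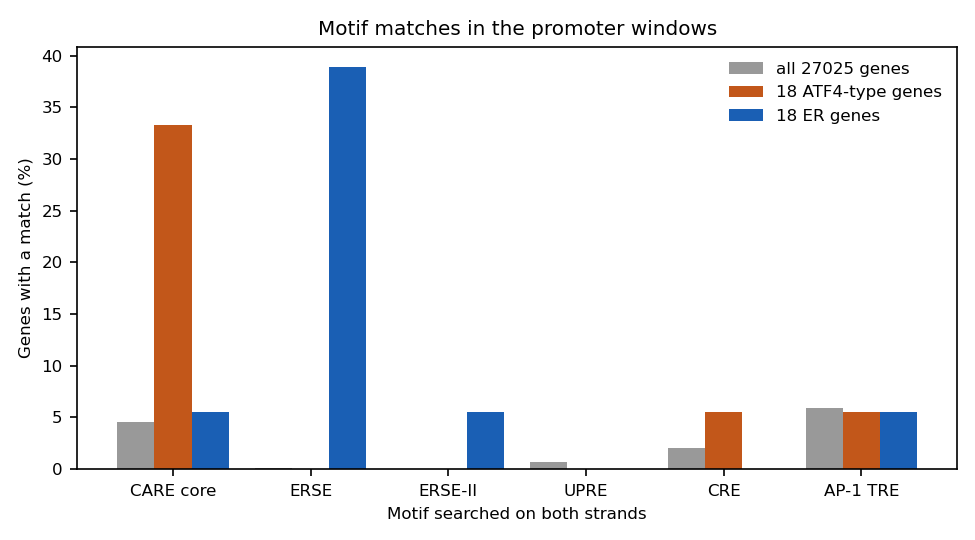
Bars give the percent of genes whose 300-base start-site window holds each of 6 elements, for all 27025 genes, the 18 ATF4-type genes and the 18 ER genes with a window. The ERSE bar reaches 38.9% in the ER genes against 0.137% in all genes, and the CARE core bar reaches 33.3% in the ATF4-type genes against 4.51%.

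The 250 bases before the RefSeq start are printed for 8 genes, chosen because they hold these elements or, for Psat1, because it is the ATF4-type gene with the largest fitted log2(RPKM + 1) difference between cell sources (with a pseudocount of 0.1 that of Phgdh was larger). They run 5′ to 3′ on the gene's strand with each matched element in capitals. The RefSeq start used here is not the deposited model's start for Psat1, Asns, Herpud1 and Pdia6.
Psat1 (chr19:15924623-15924872, minus strand): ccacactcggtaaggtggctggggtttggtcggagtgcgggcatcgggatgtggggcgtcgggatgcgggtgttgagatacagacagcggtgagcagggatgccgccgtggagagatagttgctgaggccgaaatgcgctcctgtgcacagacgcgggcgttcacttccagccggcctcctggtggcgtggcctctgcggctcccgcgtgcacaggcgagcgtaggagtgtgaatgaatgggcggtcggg
Hspa5 (chr2:34771840-34772089, plus strand): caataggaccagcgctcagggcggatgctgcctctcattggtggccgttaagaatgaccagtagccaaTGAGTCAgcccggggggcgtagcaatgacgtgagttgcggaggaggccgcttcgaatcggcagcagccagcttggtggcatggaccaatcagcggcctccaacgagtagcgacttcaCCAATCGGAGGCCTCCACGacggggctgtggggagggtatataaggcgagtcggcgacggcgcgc
Herpud1 (chr8:94386179-94386428, plus strand): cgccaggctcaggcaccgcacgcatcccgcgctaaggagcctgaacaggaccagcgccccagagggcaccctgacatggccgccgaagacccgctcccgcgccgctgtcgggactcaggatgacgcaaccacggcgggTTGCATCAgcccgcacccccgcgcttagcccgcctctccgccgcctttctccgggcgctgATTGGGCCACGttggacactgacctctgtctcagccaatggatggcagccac
Hsp90b1 (chr10:86705445-86705694, minus strand): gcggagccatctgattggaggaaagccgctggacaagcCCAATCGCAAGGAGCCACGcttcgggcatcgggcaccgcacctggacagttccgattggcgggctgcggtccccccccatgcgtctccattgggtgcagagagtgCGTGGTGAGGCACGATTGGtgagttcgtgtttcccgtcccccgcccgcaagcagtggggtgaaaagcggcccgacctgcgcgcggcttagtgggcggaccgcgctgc
Aars (chr8:111033592-111033841, plus strand): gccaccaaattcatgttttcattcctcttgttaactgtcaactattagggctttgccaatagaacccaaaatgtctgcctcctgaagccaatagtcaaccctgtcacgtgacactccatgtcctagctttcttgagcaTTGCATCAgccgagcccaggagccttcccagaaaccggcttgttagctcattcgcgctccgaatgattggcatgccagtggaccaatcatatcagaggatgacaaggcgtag
Asns (chr6:7693210-7693459, minus strand): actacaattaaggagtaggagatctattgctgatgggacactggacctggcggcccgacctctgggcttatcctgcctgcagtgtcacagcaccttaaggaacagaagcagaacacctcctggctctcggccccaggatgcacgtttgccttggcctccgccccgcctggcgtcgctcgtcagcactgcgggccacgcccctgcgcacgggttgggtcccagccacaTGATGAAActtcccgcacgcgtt
Creld2 (chr15:88819396-88819645, plus strand): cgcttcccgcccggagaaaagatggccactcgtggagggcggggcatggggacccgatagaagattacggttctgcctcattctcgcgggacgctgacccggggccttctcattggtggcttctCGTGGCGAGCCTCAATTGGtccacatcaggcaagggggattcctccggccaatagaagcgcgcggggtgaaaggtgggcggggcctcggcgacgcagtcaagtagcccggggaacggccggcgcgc
Pdia6 (chr12:17266339-17266588, plus strand): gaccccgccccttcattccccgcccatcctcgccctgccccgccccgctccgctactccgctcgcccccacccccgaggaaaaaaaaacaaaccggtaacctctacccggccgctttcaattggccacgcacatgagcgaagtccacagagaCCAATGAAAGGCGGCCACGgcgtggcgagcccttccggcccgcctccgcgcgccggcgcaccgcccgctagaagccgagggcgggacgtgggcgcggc
In Hspa5 the AP-1 element lies at bases 69 to 75 and the ERSE at bases 186 to 204, counted from the 5′ end of the printed run, which puts the first base of the ERSE 65 bases before the start. Hsp90b1 holds an ERSE on each strand. Herpud1 holds both a CARE core and an ERSE-II, and its CARE core reads TTGCATCA, the same 8 letters as the CARE core printed for Aars, whose window holds another past the printed run. Psat1 held none of the 6 elements.

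The first question was what followed editing of Jund in resting iBMDM. In the libraries labelled Jund KO, mRNAs of 10 of 12 ER chaperones passed as lower and mRNAs of 4 of 6 synthesis enzymes as higher than in Scramble. Of the 39 genes tested, 19 passed (7 higher, 12 lower), against 11.7% of all 10691 genes tested. All 7 that were higher were ATF4-type genes, and 11 of the 12 that were lower were ER genes. In bulk RNA a change in the level per cell cannot be told apart from a change in the share of cells that express a gene.

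Creld2, an ER folding factor induced by ER stress (chromosome 15, bases 88819646 to 88826681, plus strand), stood at 105 and 90.8 RPKM in Scramble and 22.4 and 16.0 RPKM in Jund KO. Its fold change was the largest of the 39 genes tested at -2.31 ± 0.22 on the log2(RPKM + 1) scale (SE, n = 2 per group, limma adjusted p = 0.000513), which is 4.95-fold, although Ddit4 had a larger one with a pseudocount of 0.1. Hspa5 stood at 425 and 522 RPKM in Jund KO, below both Scramble libraries at 1631 and 1933 RPKM, and fell by 1.91 ± 0.22 (limma adjusted p = 0.00113). Manf, a secreted ER stress-induced factor, stood at 164 and 171 RPKM in Scramble and 37.8 and 50.8 RPKM in Jund KO (-1.91 ± 0.20, limma adjusted p = 0.000724). Dnajc3, the BiP co-chaperone that also inhibits PERK, stood at 91.9 and 108 RPKM in Scramble and 29.7 and 28.4 RPKM in Jund KO (-1.74 ± 0.18, limma adjusted p = 0.000789). In each of these 4 genes both Jund KO libraries lay far below both Scramble libraries, with no overlap. A lack of overlap, in either direction, was found in 61.6% of all genes tested.

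The other chaperones moved the same way or did not pass. Sdf2l1, a BiP-associated factor, was at 116 and 80.0 RPKM in Scramble and 33.9 and 32.9 RPKM in Jund KO (limma adjusted p = 0.0117). Hsp90b1, the ER HSP90, was at 1027 and 1317 RPKM against 429 and 534 RPKM (limma adjusted p = 0.0236). Calr at -1.12, the protein disulphide isomerases Pdia4 at -1.10 and Pdia6 at -1.004 and the co-chaperone Dnajb9 at -0.92 also fell by log2 change, with limma adjusted p-values of 0.00583, 0.00573, 0.00449 and 0.0496, and Dnajb9 no longer passed under 10 of 16 alternatives. Pdia3, another disulphide isomerase, had a log2 change of -0.85 (limma adjusted p = 0.0644), and Canx, the membrane chaperone calnexin, had -0.44 (limma adjusted p = 0.316). In all, 10 of 12 chaperones were lower with a median log2 change of -1.20, beside a median of 0.235 for all genes tested. Of the degradation factors, Herpud1, a membrane component of the retrotranslocation machinery (chromosome 8, bases 94386500 to 94395358, plus strand), fell from 44.5 and 52.1 RPKM to 14.9 and 17.2 RPKM (-1.53 ± 0.19, limma adjusted p = 0.0019), whereas Sel1l (-0.31) and Edem1 (0.21) did not pass.

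The synthesis enzymes went the other way. Shmt2, the mitochondrial serine hydroxymethyltransferase (chromosome 10, bases 127517123 to 127522444, minus strand), stood at 28.0 and 25.8 RPKM in Scramble and 110 and 87.9 RPKM in Jund KO, a log2 change of 1.83 ± 0.19 or 3.56-fold (limma adjusted p = 0.000849). Asns, asparagine synthetase (chromosome 6, bases 7675171 to 7693182, minus strand), stood at 34.1 and 32.4 RPKM in Scramble and 87.5 and 77.8 RPKM in Jund KO (1.29 ± 0.20, limma adjusted p = 0.00565). Psph, the last enzyme of serine synthesis, stood at 10.9 and 4.97 RPKM in Scramble and 25.7 and 22.7 RPKM in Jund KO (1.58 ± 0.31, limma adjusted p = 0.0145). For each of the 3 enzymes both Jund KO libraries were above both Scramble libraries, where 61.6% of all genes tested had no overlap in either direction.

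Psat1, the aminotransferase of serine synthesis, rose by 0.87 ± 0.17 (limma adjusted p = 0.0131) and no longer passed under 6 of 16 alternatives. Phgdh, the first enzyme of that pathway, had a log2 change of 1.12 (limma adjusted p = 0.103), with 12.6 and 5.98 RPKM in Scramble and 21.8 and 18.4 RPKM in Jund KO, and Mthfd2, a mitochondrial folate enzyme, had 0.61 (limma adjusted p = 0.0809). The 6 enzymes thus had 4 higher, none lower and a median of 1.20. Slc7a5, the light chain of the large neutral amino acid transporter, rose from 13.2 and 9.85 RPKM to 31.1 and 34.5 RPKM (1.45 ± 0.22, limma adjusted p = 0.00494), while its heavy chain Slc3a2 was at 117 and 101 RPKM against 119 and 98.9 RPKM. Among the 7 tRNA synthetases, Cars (0.97) and Gars (0.78) rose and 5 did not pass, and the median was 0.53 beside 0.235 for all genes tested. Cars no longer passed under 7 and Gars under 6 of 16 alternatives.

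The stress regulators did not follow the enzymes. Ddit4, an inhibitor of mTORC1 signalling, was lower, at 0 and 0.258 RPKM in Jund KO against 2.16 and 2.43 RPKM in Scramble (limma adjusted p = 0.0225), which rests on 7 reads in each Scramble library and 0 and 8 reads in Jund KO. This call was lost under 7 of 16 alternatives. Ddit3, which encodes the factor CHOP, was at 22.8 and 14.1 RPKM against 31.0 and 10.0 RPKM, and Trib3, Sesn2 and Ppp1r15a did not pass either. None of the sensors Eif2ak3, Eif2ak4, Ern1 and the target Xbp1 passed. Of 29 further genes of the unfolded protein response, 1 was higher and 7 lower, beside 6.93% of all genes higher and 4.82% lower. The ER chaperone Hyou1 was at 44.9 and 44.8 RPKM in Jund KO against 189 and 175 RPKM (-1.998 ± 0.15, limma adjusted p = 0.000194) and the oxidoreductase Ero1l at -1.51 (limma adjusted p = 0.0141). Atf6 was the gene that was higher, at 0.78 (limma adjusted p = 0.0387). Of 22 further genes of the integrated stress response tested, 5 were higher and 3 lower, again beside 6.93% and 4.82% of all genes. The mitochondrial folate enzyme Aldh1l2 was higher by 1.84 (limma adjusted p = 0.00187), whereas the cystine transporter Slc7a11, also an ATF4 target, was at 0.629 and 0.877 RPKM against 64.0 and 85.4 RPKM (-5.42 ± 0.25, limma adjusted p = 1.33e-05). Atf4 mRNA itself had 0.51 (limma adjusted p = 0.0977). Some markers of myeloid cells also differed between these libraries, in both directions. S100a8 was at 0 in both Jund KO libraries against 34.8 and 33.2 RPKM in Scramble, Itgam at 213 and 220 RPKM against 441 and 420 RPKM, and Mertk at 36.1 and 36.8 RPKM against 7.04 and 8.27 RPKM, and their part in the changes above was not tested.

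Each of the 4 libraries carried weight in the Jund comparison, where leaving out one left a single library in a group that was assumed to vary like the others. The number passing was 7 without the first and 9 without the second Jund KO library, 12 without the first and 9 without the second Scramble library. The chaperones passing as lower were 4 without the first Jund KO library (Hspa5, Dnajc3, Manf and Creld2), 6 without the second, 7 without the first Scramble library and 6 without the second. The ATF4-type genes fell from 7 higher to 2 (Shmt2 and Slc7a5) without the first Jund KO library or without the second Scramble library, to 2 (Asns and Shmt2) without the second Jund KO library and to 4 without the first Scramble library. Shmt2, Hspa5, Dnajc3, Manf, Creld2 and Herpud1 passed under all 16 alternatives tried. Setting all libraries to the same median moved the median of all genes from 0.235 to -0.04 and gave 4 higher and 14 lower, with 11 of 12 chaperones lower.

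**Figure D3:**
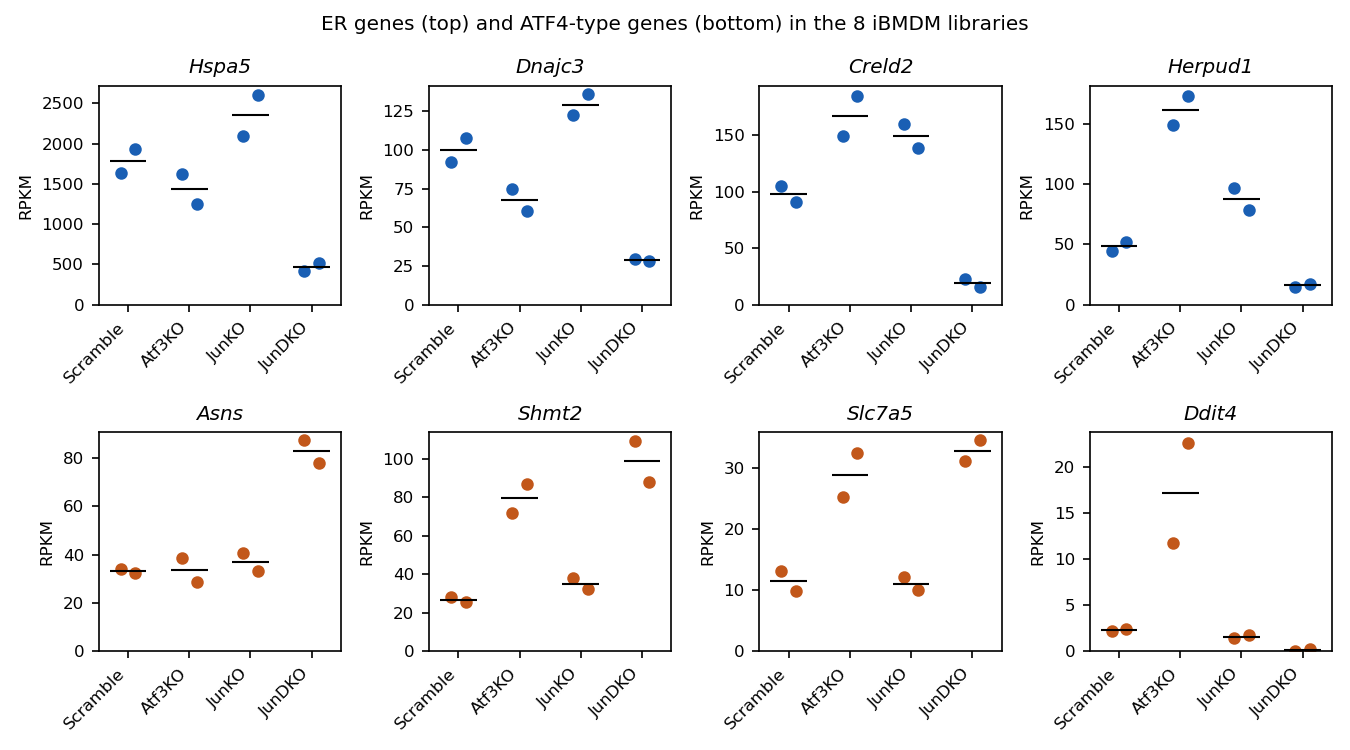
RPKM in each of the 8 iBMDM libraries (points, with a bar at the mean of each genotype) for 4 ER genes, Hspa5, Dnajc3, Creld2 and Herpud1, and 4 ATF4-type genes, Asns, Shmt2, Slc7a5 and Ddit4, on axes that start at 0. The Jund KO points are the lowest for the 4 ER genes and the highest for Asns and Shmt2, and the Atf3 KO points are the highest for Herpud1 and Ddit4.

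The libraries labelled Atf3 KO had another pattern, with a few genes of both classes higher. Of the 39 genes, 14 passed (11 higher, 3 lower), against 41.2% of all genes tested, so their share was near the background. The median was 0.12 for the 39 genes and 0.05 for all genes. The trend with GC content given above was measured in this comparison, with a median log2 change of -0.62 in the fifth of genes lowest in GC and 0.80 in the highest.

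Ddit4 (chromosome 10, bases 59949675 to 59951770, minus strand) rose from 2.16 and 2.43 RPKM in Scramble to 11.8 and 22.6 RPKM, a log2 change of 2.40 ± 0.34 or 5.27-fold (limma adjusted p = 0.00181). Sesn2, another stress-induced inhibitor of mTORC1, was at 14.3 and 16.7 RPKM against 5.10 and 4.86 RPKM (1.46 ± 0.28, limma adjusted p = 0.00595). Phgdh was at 22.5 and 43.1 RPKM against 12.6 and 5.98 RPKM (1.73 ± 0.38, limma adjusted p = 0.00968), and Shmt2 at 72.2 and 87.0 RPKM against 28.0 and 25.8 RPKM (1.52 ± 0.19, limma adjusted p = 0.00124). In these 4 genes both Atf3 KO libraries were above both Scramble libraries, where 70.8% of all genes tested had no overlap in either direction. Slc7a5 rose to 25.3 and 32.4 RPKM (1.26 ± 0.22, limma adjusted p = 0.00407) and Aars to 69.2 and 86.9 RPKM from 42 and 31 RPKM (1.08 ± 0.22, limma adjusted p = 0.00684). Asns did not move with them, at 38.5 and 28.5 RPKM against 34.1 and 32.4 RPKM, a log2 change of -0.0033 ± 0.20 (limma adjusted p = 0.999), and Psat1 had -0.12 ± 0.17.

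On the ER side, Herpud1 rose from 44.5 and 52.1 RPKM to 150 and 174 RPKM (1.72 ± 0.19, 3.29-fold, limma adjusted p = 0.000768) and Sdf2l1 from 116 and 80.0 RPKM to 287 and 493 RPKM (1.96 ± 0.28, limma adjusted p = 0.00192). Creld2 (0.76), Sel1l (0.61), the adaptor of the HRD1 ubiquitin ligase, and Pdia4 (0.58) were higher with limma adjusted p-values of 0.0238, 0.0233 and 0.0311. Dnajc3 at -0.56 and the PERK gene Eif2ak3 at -0.62 were lower (limma adjusted p = 0.0385 and 0.0379), as was the asparaginyl-tRNA synthetase gene Nars at -0.57 (limma adjusted p = 0.027). Hspa5, at 1627 and 1253 RPKM against 1631 and 1933 RPKM, did not pass (-0.31, limma adjusted p = 0.265). Of the 12 chaperones 3 were higher, 1 lower and the median was 0.01, and after correction for GC content 4 were higher, none lower and the median was 0.36.

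Of 29 further unfolded protein response genes 12 were higher and 3 lower in Atf3 KO, beside 20.7% of all genes higher and 20.6% lower, with Derl3, an ER degradation factor, at 13.5 and 18.6 RPKM against 1.95 and 1.76 RPKM (limma adjusted p = 0.0101) and Txndc11, an ER thioredoxin family member, at 65.1 and 61.9 RPKM against 17.1 and 13 RPKM (limma adjusted p = 0.000681). Of 22 further integrated stress response genes 6 were higher, among them Atf4 at 0.77 (limma adjusted p = 0.00979) and the proline synthesis enzyme Pycr1 at 2.74 and 5.66 RPKM against 0 and 0.604 RPKM (limma adjusted p = 0.0109), which passed the filter through groups where it was high, and 7 were lower, with Slc7a11 at 8.00 and 5.65 RPKM against 64.0 and 85.4 RPKM (-3.28 ± 0.25, limma adjusted p = 0.000198). Ddit4, Shmt2, Slc7a5, Sdf2l1 and Herpud1 passed under all 15 alternatives, whereas Phgdh did not pass without the second Atf3 KO or the second Scramble library. Correction for GC content changed which genes passed. Sesn2, Creld2, Nars and Dnajc3 no longer did, Pdia6, Dnajb9 and Edem1 then passed as higher and Slc3a2 and Sars as lower, and the ER genes as a whole had 7 higher and 1 lower. Without the second Atf3 KO library, within the shared date, 10 genes passed (9 higher, 1 lower). The number passing was 6 without the second Scramble library, and quantile scaling gave 9 higher and 5 lower.

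In the libraries labelled Jun KO no member passed against Scramble, as 0.281% of all genes did, which is 30 genes. At an unadjusted p under 0.05 there were 10 members and 842 genes, and limma-voom on recovered reads also called 0 members. The chaperones nonetheless had a median log2 change of 0.40 beside 0.01 for all genes. Herpud1 was at 97.1 and 78.7 RPKM against 44.5 and 52.1 RPKM in Scramble (0.85 ± 0.19, limma adjusted p = 0.191), and Pdia4 at 363 and 336 RPKM against 206 and 212 RPKM (0.74 ± 0.18, limma adjusted p = 0.218). In both genes the Jun KO libraries were above the Scramble libraries without overlap, but 37.2% of all genes tested also had no overlap, in either direction. Pdia4 was the 1 member that passed after correction for GC content. Ddit3 had the largest estimate, 1.12 ± 0.47, from 33.0 and 47.8 RPKM against 31.0 and 10.0 RPKM, and there the groups differed by less than the Scramble libraries did from each other.

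**Figure D4:**
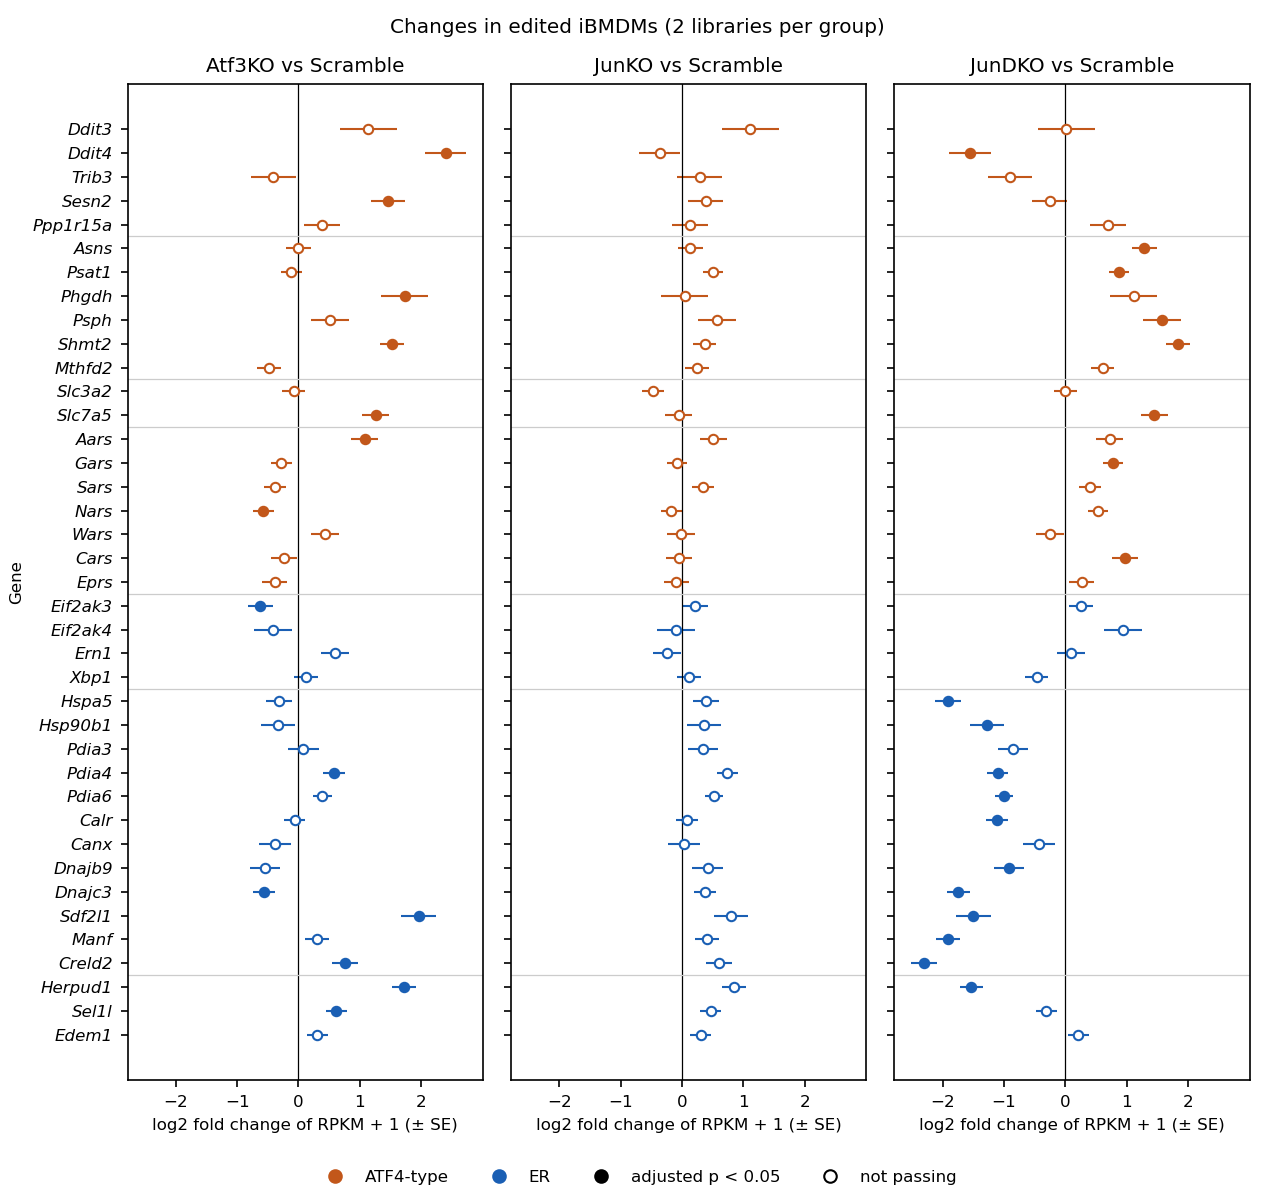
Log2 fold change on the log2(RPKM + 1) scale against Scramble, with its SE as a bar, for the 39 tested genes in Atf3 KO, Jun KO and Jund KO (2 libraries per genotype). Filled points passed at a limma adjusted p under 0.05. Filled points of Jund KO lie at or below -0.92 for 10 of 12 chaperones and above 0 for 4 of 6 synthesis enzymes.

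All 3 knockouts were set against the same Scramble libraries, so their fold changes share that error, and the knockouts were also compared with one another. Jund KO against Jun KO gave 19 of 39 genes (6 higher, all ATF4-type, and 13 lower, all ER), against 8.14% of all genes tested. Of the 12 chaperones 11 were lower, with a median of -1.74 beside 0.23 for all genes. Creld2 was at 22.4 and 16.0 RPKM in Jund KO against 160 and 138 RPKM in Jun KO (-2.91 ± 0.22, limma adjusted p = 0.000203), and Hspa5 at 425 and 522 RPKM against 2096 and 2607 RPKM (-2.31 ± 0.22, limma adjusted p = 0.000616). Asns (1.15), Shmt2 (1.46) and Slc7a5 (1.49) were higher, with limma adjusted p-values of 0.0126, 0.00361 and 0.0056. The number passing was 8 without the first and 9 without the second Jund KO library and 9 without the second Jun KO library. In each of these 3 fits 7 of the 12 chaperones were lower. No ATF4-type gene passed without the first Jund KO library, and only Shmt2 did without the second Jund KO or the second Jun KO library. Equal library medians gave 3 higher and 15 lower.

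Atf3 KO against Jund KO gave 27 of 39 genes, against 40.7% of all genes tested. The 16 that were higher in Atf3 KO included 13 ER genes, with Herpud1 at 150 and 174 RPKM against 14.9 and 17.2 RPKM (3.25 ± 0.19, 9.53-fold, limma adjusted p = 4.78e-05), Creld2 at 149 and 185 RPKM against 22.4 and 16.0 RPKM (limma adjusted p = 9.03e-05) and Sdf2l1 at 287 and 493 RPKM against 33.9 and 32.9 RPKM (limma adjusted p = 0.000169). The 11 that were lower included 9 ATF4-type genes, with Asns at -1.29 ± 0.20 (limma adjusted p = 0.00216). Shmt2 and Slc7a5, which were higher in both genotypes than in Scramble, differed between them by -0.31 ± 0.19 and -0.19 ± 0.22, which did not pass (limma adjusted p = 0.236 and 0.52). The GC trend was present here too (rho 0.45 across 10617 genes), and 31 genes passed after correction for it, with Shmt2 and Slc7a5 then lower in Atf3 KO than in Jund KO. Atf3 KO against Jun KO gave 15 genes (8 higher, 7 lower), against 35.5% of all genes tested, and between 3 and 18 when 1 library was left out, with 3 without the second Jun KO library, 7 without the first and 7 without the second Atf3 KO library.

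The next comparison asked what TLR4 activation did within 1 h in TGEM, in a fit with strain as a covariate (3 KLA and 2 vehicle libraries). Of the 37 members tested, 1 passed, Ppp1r15a, against 1.53% of all 10357 genes tested. Ppp1r15a encodes GADD34, the regulatory subunit that directs a phosphatase to eIF2 and so ends the stress response (chromosome 7, bases 45522917 to 45526268, minus strand). It stood at 36.2 and 16.5 RPKM in the C57Bl/6EiJ and Balb/cJ vehicle libraries, at 212 RPKM in C57Bl/6EiJ with KLA and at 306 and 280 RPKM in Balb/cJ with KLA. All 3 KLA libraries were above both vehicle libraries, by 3.41 ± 0.38 or 10.6-fold (limma adjusted p = 0.00541). KLA and vehicle libraries did not overlap, in either direction, in 23.7% of all genes tested. Within the pairs of libraries that share a date, the log2 change was 2.52 in C57Bl/6EiJ and 4.13 in Balb/cJ. The call was lost when either the first Balb/cJ KLA library or the Balb/cJ vehicle library was left out, when date replaced strain and when no filter on low levels was used.

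Other members had values but no call. Ddit3 was at 33.2 and 30.3 RPKM with vehicle and 14.3, 16.2 and 14.7 RPKM with KLA, so the KLA libraries were all below the vehicle libraries (-1.03 ± 0.24, limma adjusted p = 0.123). Both date pairs had this sign, at -1.16 and -0.86. A lack of overlap, in either direction, was found in 23.7% of all genes tested. Herpud1 was at 11.3 and 7.11 RPKM with vehicle and 11.7, 22.0 and 17.6 RPKM with KLA (0.79 ± 0.34, limma adjusted p = 0.336), with log2 changes of 0.05 in the C57Bl/6EiJ pair and 1.50 in the Balb/cJ pair. None of the 12 chaperones passed, and their median was -0.37 beside -0.15 for all genes. None of the further stress genes of either pathway passed, and Atf4 had 0.08 ± 0.30 (limma adjusted p = 0.916).

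**Figure D5:**
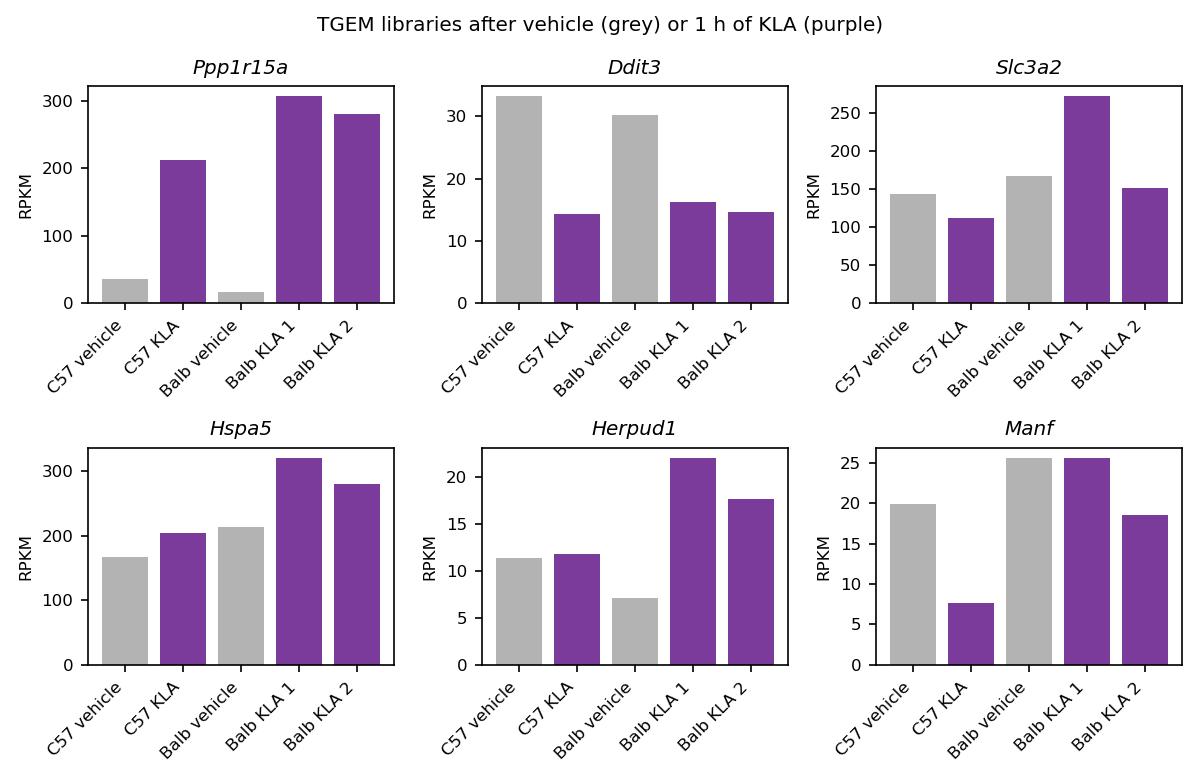
Bars give RPKM in each of the 5 TGEM libraries, by strain and treatment, for Ppp1r15a, Ddit3, Slc3a2, Hspa5, Herpud1 and Manf, 1 bar per library, with axes from 0. Ppp1r15a rises from 36.2 and 16.5 RPKM with vehicle to between 212 and 306 RPKM with KLA, and Ddit3 lies between 14.3 and 16.2 RPKM in the KLA libraries, below both vehicle libraries.

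Between strains no member passed, against 2.31% of all genes tested. An unadjusted p under 0.05 was found in 8 of 37 members and in 2213 of 10357 genes. Sesn2 was closest, at 8.96 and 6.28 RPKM in the C57Bl/6EiJ libraries and 1.13, 2.52 and 2.13 RPKM in the Balb/cJ libraries (-1.60 ± 0.32, limma adjusted p = 0.0514), and every Balb/cJ library was below both C57Bl/6EiJ libraries. The strains did not overlap, in either direction, in 35.1% of all genes tested. limma-voom on recovered reads called 2 members, Sesn2 lower and Hsp90b1 higher in Balb/cJ. Of 27 further unfolded protein response genes tested, Wfs1, an ER membrane protein, was lower in Balb/cJ at 22.0 to 29.4 RPKM against 116 and 123 RPKM (limma adjusted p = 0.00783). The fold changes between strains fell with GC content (rho -0.45 across 10286 genes), and Balb/cJ reads were aligned to a genome of their own. In the interaction of strain and KLA, 0% of all genes passed and no member did. At an unadjusted p under 0.05 there were 3 members and 835 genes, and limma-voom called 0 members. Ppp1r15a had an interaction estimate of 1.55 ± 0.53 (limma adjusted p = 0.601), so a strain difference in its response was not shown with 1 residual degree of freedom.

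The last comparison set the 2 TGEM vehicle libraries against the 2 Scramble iBMDM libraries. Of the 39 members, 32 passed (2 higher, 30 lower in TGEM), against 49.9% of all 10929 genes tested. All 12 chaperones were lower, with a median of -2.33 beside -0.32 for all genes, as were 5 of 6 synthesis enzymes, with a median of -2.67. Hspa5 was at 166 and 213 RPKM in TGEM against 1631 and 1933 RPKM (-3.23 ± 0.22, 9.38-fold, limma adjusted p = 1.47e-05), and Pdia4 at 20.8 and 28.0 RPKM against 206 and 212 RPKM (-3.06 ± 0.18, limma adjusted p = 6.6e-06). Psat1 was at 3.12 and 6.12 RPKM against 59.0 and 53.3 RPKM (-3.40 ± 0.22, limma adjusted p = 1.06e-05) and Asns at 3.02 and 2.68 RPKM against 34.1 and 32.4 RPKM (-3.15 ± 0.22, limma adjusted p = 1.51e-05). Dnajb9, at -0.86, was the chaperone that no longer passed with equal library medians, quantile scaling or GC correction (-0.047) or without the C57Bl/6EiJ vehicle or the second Scramble library. Fold changes rose with GC content here too (rho 0.33 across 10848 genes). The vehicle TGEM libraries did not overlap the Scramble libraries in Hspa5, Pdia4, Psat1 or Asns, nor did they, in either direction, in 67.2% of all genes tested.

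Phgdh had 0 reads in the C57Bl/6EiJ vehicle library, which allows up to 0.142 RPKM at 3 reads, and 2 reads in the Balb/cJ vehicle library, and it passed the filter through its iBMDM level of 12.6 and 5.98 RPKM. The other direction was taken by Ppp1r15a, at 36.2 and 16.5 RPKM against 5.56 and 5.77 RPKM (1.94 ± 0.27, limma adjusted p = 0.000523), and by Ern1 (0.78 ± 0.20, limma adjusted p = 0.0121). Ddit3, Sesn2, Slc3a2, Psph, Aars, Eif2ak3 and Edem1 did not pass. The 22 further integrated stress response genes tested had 1 higher and 15 lower, beside 16.2% of all genes higher and 33.7% lower. Atf4 mRNA was the one higher in TGEM, by 1.14 ± 0.20 (limma adjusted p = 0.00195). Those lower included Slc7a11 (-4.71) and Mthfd1l (-3.85), a mitochondrial folate enzyme. Of 29 further unfolded protein response genes 3 were higher and 16 lower, again beside 16.2% and 33.7% of all genes. Wfs1 led the higher genes at 4.68 ± 0.36 and Hyou1 the lower genes at -3.37 ± 0.17 (limma adjusted p = 2.3e-05 and 3.67e-06).

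Cell source, immortalisation with Myc and BRAF(V600E), date and the sex-linked pattern cannot be told apart in that comparison. Without the Balb/cJ vehicle library, so within C57Bl/6EiJ, 28 members passed, all 12 chaperones among them. Markers of other cells also differed. The summed level of 4 stromal markers was 34.3 to 71.8 RPKM in TGEM and at most 0.426 RPKM in iBMDM. Of 3 plasma cell markers, Jchain and Mzb1 were at most 1.32 and 1.71 RPKM in TGEM and at 0 in iBMDM, and the list's sum of 44.9 to 219.7 RPKM in TGEM and 2.11 to 22.2 RPKM in iBMDM was nearly all Sdc1. The neutrophil markers S100a9, Ly6g and Retnlg were at 0 in every library. Col1a1, Msln and the 4 T cell markers were at 0 in all iBMDM libraries. The lists for T cells, neutrophils, eosinophils and mast cells summed to at most 13.4 RPKM in TGEM and 41.1 RPKM in iBMDM. The 8 macrophage markers summed to 7803 to 10850 RPKM in TGEM and 16880 to 33020 RPKM in iBMDM. Lyz2 was the most abundant of them, and Cd68 went the other way, at 1404 to 4050 RPKM in TGEM and 353 to 705 RPKM in iBMDM. Their part in the lower chaperone and synthesis enzyme levels was not tested.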

How the data were processed

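PolyA RNA was sequenced in 13 libraries. Per the file headers and the study's methods, the authors aligned reads with STAR to mm10, or to a Balb/cJ genome made from mm10, counted exonic reads per gene model with HOMER and deposited RPKM (the columns are headed FPKM). Tool versions and strand handling are not given in the sources used here. Reads that are split between overlapping or near-identical genes could not be separated. All values up to 50 reads (100%) fell on whole reads within 0.05 read or the rounding of the file, from which library depths and a limma-voom alternative were obtained.

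Differences were tested with limma 3.58.1 in R 4.3.3 (trended variance, two-sided) on log2(RPKM + 1), since the unit is not counts, over genes with a mean of at least 1 RPKM in the fitted libraries. Fold changes on this scale understate those of low genes. P-values were adjusted by Benjamini-Hochberg over all genes tested, and an adjusted p under 0.05 passed. The 8 iBMDM libraries shared 1 fit with 4 groups. KLA was tested in the 5 TGEM libraries with strain as covariate, and TGEM vehicle against Scramble in all 13. The iBMDM replicates are called biological, but separate cultures or clones are not described, so the p-values measure the spread between these libraries, which may be technical. No replicates agreed within sampling noise.

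All 42 members could be named, Atf3, Jun, Jund, Atf4 and Atf6 besides, and of the further stress genes at most the 2 with the largest change per list. Members, gene lists and tests were chosen with earlier results of these data known. The alternatives were other pseudocounts (0.1 and 5), no filter, other scalings, a stricter limit (2-fold and 16 RPKM), GC correction, other fits and leaving out each library. Fits without both Atf3 KO libraries were added after seeing the data. The code was tested on simulated data, where the interaction, with 1 residual degree of freedom, made more false calls than its threshold allows. The 0-read limit of 3 reads covers counting error only. Promoter windows and gene positions are those of RefSeq GRCm38.p6 and of the deposited models. One of the marker lists is not reported here.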

Additional observations from a re-analysis of the deposited data

How the results depend on the processing

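No member that passed a test changed direction under any alternative. Of 1848 values of passing members under alternatives, 306 no longer passed. The cause was not tested unless the alternative itself tests fewer genes or libraries or sets a higher limit. The stricter limit (2-fold and 16 RPKM) left 7 members for Atf3 KO against Scramble, 5 for Atf3 KO against Jun KO, 17 for Atf3 KO against Jund KO and 21 for TGEM vehicle against Scramble. Fits with only the 2 groups compared gave 8 and 6 for the first pair of these comparisons. GC correction gave 1 member (Pdia4) for Jun KO against Scramble, also with the replicate block. For KLA, 0 members passed without a filter and with date in place of strain, and limma-voom on recovered reads passed 2 members between strains. Leaving out 1 library gave 6 to 16 members for Atf3 KO against Scramble, 7 to 12 for Jund KO against Scramble, 3 to 18 for Atf3 KO against Jun KO, 8 to 13 for Jund KO against Jun KO and 0 to 1 for KLA.

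Replicate numbers were not taken to pair the libraries, since no label ties them to a shared culture or batch. Replicate differences correlated at 0.185 to 0.225 among Scramble, Jun KO and Jund KO, which share a title date, and at -0.12 to -0.215 with Atf3 KO. With the replicate block 12, 0 and 18 members passed for Atf3 KO, Jun KO and Jund KO against Scramble, and 15, 27 and 19 in the comparisons between knockouts. Under the block Eif2ak3 and Dnajc3 did not pass for Atf3 KO and Dnajb9 did not pass for Jund KO against Scramble, nor did Nars for Jund KO against Jun KO, where Trib3 then passed as lower. Without both Atf3 KO libraries, an alternative added after seeing the data, 21 members passed for Jund KO against Scramble, 21 for Jund KO against Jun KO and 0 for Jun KO against Scramble.

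Counts over all genes moved too. Under the stricter limit 1339 genes passed for Atf3 KO, 531 for Jund KO and 2170 for TGEM against Scramble, in place of 4409, 1256 and 5456. GC correction gave 122 genes in place of 30 for Jun KO against Scramble, and the block gave 14. limma-voom gave 240 in place of 158 for KLA and 560 in place of 239 between strains, and no filter gave 57 and 44. For the interaction, pseudocount 5 gave 21 genes and equal medians 1, in place of 0. Depth of 1553296 to 1929988 reads in 5 of the 8 iBMDM libraries limits genes of few reads, such as Ddit4.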
